A study of Mus musculus with 2 samples.

Results

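The genes described here are 10 of the 17891 genes in a single-cell count table of mouse corneal epithelium. They are 8 genes of nuclear factor kappa B (NF-kB) feedback, Bcl3, Nfkbia, Nfkbiz, Tnfaip3, Relb, Nfkb1, Nfkb2 and Zc3h12a, together with Icam1 and Socs3. They were chosen by name, and all 10 were in the table. Each was summed over the cells of 1 annotated class and 1 library and given as unique molecular identifiers (UMIs) per 1000000 UMIs of those cells (CPM).

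NF-kB is a family of dimeric transcription factors that IkB proteins hold inactive until a signal from a cytokine or microbial receptor leads the IkB kinases to mark them for breakdown. Among the genes that NF-kB switches on are its own inhibitors and subunits, so a cell's levels of these transcripts follow recent activity of the pathway. In the surface epithelium of the eye the pathway is known for driving chemokine and adhesion molecule genes during inflammation, while SOCS proteins are the matching brake on the cytokine receptors that act through JAK kinases and STAT factors.

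The dry eye library held the corneal epithelium of 6 right eyes, pooled, on day 9 after excision of both lacrimal glands of the right side. The control library held that of the 7 left eyes, which were not operated on. Both came from a group of 7 male C57BL/6J mice aged 10 weeks, and the labels name no transgene or agent. Sheets were separated with enzyme and dissociated with trypsin, and the chemistry read the 3' ends of transcripts. With 1 pooled library per group there was no replicate, and the side of the eye, the surgery and the library cannot be told apart. No test between groups was therefore made, and all intervals are exact 95% intervals that cover counting error only.

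The dry eye library had 16420 cells and 207030777 UMIs, and the control library 17465 cells and 191493194 UMIs, with medians of 9086.5 and 8248 UMIs per cell. Of the cell barcodes, 74 occurred in both. The authors' deposited annotation gave each cell 1 of 13 classes, of which LSC*, TAC1*, TAC2*, Wing* and Squam* carry an asterisk that the labels do not explain. These starred classes held 10.9% of dry eye cells and 14.4% of dry eye UMIs, against 0.985% of control cells and 0.989% of control UMIs. Gpha2, a limbal stem cell marker, led LSC, replication genes such as Mcm3 led TAC1, mitotic genes such as Cdc20 led TAC2, and Krt4 and Krt19 were among the leading genes of Conj. The leading genes of Basal, Wing, Squam and 3 starred classes held none of the listed markers, neither their own nor those of another type. In TAC1, TAC1*, TAC2, Basal, Wing, Squam, LSC and Conj each library had at least 100 cells, and only within these 8 classes were the libraries compared.

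The stretch before the transcription start is shown for the members the results turn on, because these transcripts are taken to be switched on through kB and STAT elements. RefSeq's promoter table for GRCm38.p6 had windows for 7 of the 10 members, 10 windows in all, and the 250 bases before each start were searched on both strands. Capitals mark matches to the kB patterns GGGNNNTTCC or GGGNNTTCC and to the STAT pattern TTCNNNGAA.
Bcl3, chr7:19822756-19823005, minus strand: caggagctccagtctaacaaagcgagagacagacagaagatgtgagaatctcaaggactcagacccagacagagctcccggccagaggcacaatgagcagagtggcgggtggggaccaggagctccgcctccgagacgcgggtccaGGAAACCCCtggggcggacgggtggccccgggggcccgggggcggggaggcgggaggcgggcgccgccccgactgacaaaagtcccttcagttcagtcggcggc
Nfkbia, chr12:55492648-55492897, minus strand: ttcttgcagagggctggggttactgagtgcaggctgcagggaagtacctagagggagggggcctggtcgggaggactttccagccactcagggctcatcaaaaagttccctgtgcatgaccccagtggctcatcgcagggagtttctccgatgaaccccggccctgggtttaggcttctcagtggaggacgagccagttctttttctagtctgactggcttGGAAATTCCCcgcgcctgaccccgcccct
Socs3, chr11:117969367-117969616, minus strand: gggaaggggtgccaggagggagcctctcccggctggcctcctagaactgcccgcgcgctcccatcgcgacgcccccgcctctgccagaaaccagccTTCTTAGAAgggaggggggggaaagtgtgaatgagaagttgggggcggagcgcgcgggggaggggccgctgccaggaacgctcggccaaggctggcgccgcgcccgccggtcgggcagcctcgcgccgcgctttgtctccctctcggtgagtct
Icam1, chr9:21015690-21015939, plus strand: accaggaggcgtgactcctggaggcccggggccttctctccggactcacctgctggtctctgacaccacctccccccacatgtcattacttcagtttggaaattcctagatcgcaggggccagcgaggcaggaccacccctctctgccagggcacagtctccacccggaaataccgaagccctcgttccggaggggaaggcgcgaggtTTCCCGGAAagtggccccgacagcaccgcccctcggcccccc
The Nfkbia match to GGGNNNTTCC began 29 bases before the start, and the Bcl3 match to GGGNNTTCC began 104 bases before it. Socs3 and Icam1 each held 1 match to TTCNNNGAA, beginning 154 and 42 bases before the start, and none to either kB pattern. Only exact matches were counted, so a kB element that differs from both patterns by 1 base would be missed. Matches to a kB pattern lay in 7 of the 10 windows, those of Bcl3, Nfkbia, Tnfaip3 and Nfkb2, with overlapping matches to both patterns in 1 Tnfaip3 and 1 Nfkb2 window. The same Nfkb2 window held the third match to the STAT pattern, and the Zc3h12a window held no match. Of all 32851 windows in the table, 4.65% held GGGNNNTTCC, 4.98% held GGGNNTTCC, 8.26% held either and 7.02% held TTCNNNGAA. The Socs3 window lies inside the gene's outermost GENCODE bounds, since RefSeq places the start further downstream. A match describes letters only and says nothing of binding.

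Over all cells, 4 members had a CPM at least 1.5-fold higher in dry eye, and none was 1.5-fold lower. These were Socs3, Bcl3, Icam1 and Relb, with ratios of 8.18, 3.56, 1.97 and 1.73. Among all 13997 genes with at least 50 UMIs, 7.94% were that much higher and 5.87% that much lower. The median log2 ratio of the members was 0.51, against -0.07 for all these genes. The other 6 ran between 0.922 for Nfkbia and 1.46 for Zc3h12a.

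Socs3 (chromosome 11, 117966079 to 117970047, minus strand) encodes a STAT3-induced inhibitor of cytokine receptors that signal through gp130. It had 1698 UMIs and 8.20 CPM in dry eye, against 192 UMIs and 1.0 CPM in control, and the ratio's interval ran from 7.04 to 9.55. At least 1 UMI was found in 6.22% of dry eye cells, against 0.933% of control cells. In Squam, the class with the fewest Socs3 UMIs per cell, 0.605% of dry eye cells and 0.0982% of control cells had one, at median depths of 9518 and 9342.5 UMIs, a level that free RNA could also give. The shares over all cells stood well above it in both libraries.

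Bcl3 (chromosome 7, 19808462 to 19822770, minus strand) encodes a nuclear IkB protein that binds NF-kB homodimers on DNA. It had 3808 UMIs and 18.4 CPM in dry eye, against 989 UMIs and 5.16 CPM in control (interval of the ratio 3.32 to 3.82), and was detected in 14.7% of dry eye cells and 4.95% of control cells. Basal had the lowest share, 2.70% of dry eye cells and 1.37% of control cells, at medians of 6126 and 5695 UMIs. An antisense gene of the table, Gm16174, overlaps Bcl3, and the labels do not state whether counting used strand. With each cell thinned to 3000 UMIs, Bcl3 was detected in 4.41% of dry eye cells and 1.30% of control cells, the same order at equal depth. Thinning left out 784 dry eye and 1094 control cells that were shallower.

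The DNA-binding subunits were closer to even. Relb (chromosome 7, 19606217 to 19629438), the partner subunit of the noncanonical pathway, had 5.79 CPM in dry eye and 3.34 CPM in control, with an interval of 1.57 to 1.91 for its ratio. Nfkb2 (chromosome 19, 46304320 to 46312385), the precursor of the subunit that pairs with RelB, had 8.11 and 6.20 CPM in dry eye and control, a ratio of 1.31. Nfkb1 (chromosome 3, 135584655 to 135691547), the precursor of the canonical small subunit, had 34.8 CPM in dry eye and 28.1 CPM in control, a ratio of 1.24. Rela and Rel, the subunits outside the list, had ratios of 1.12 and 1.02. Psd lies across part of Nfkb2 on the other strand.

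The inhibitors did not move as a block. Nfkbia (chromosome 12, 55489410 to 55492647, minus strand), the classical IkB alpha, had 10105 UMIs in dry eye and 10141 in control, or 48.8 and 53.0 CPM, a ratio of 0.922 (0.897 to 0.948). Nfkbiz (chromosome 16, 55811375 to 55838899), a nuclear IkB protein that epithelial cells induce after interleukin-1 or interleukin-17, had 50.7 CPM in dry eye and 36.4 CPM in control, a ratio of 1.39. Tnfaip3 (chromosome 10, 19000910 to 19015657), which edits ubiquitin chains above the IkB kinases, had 3.25 CPM in dry eye and 2.80 CPM in control, a ratio of 1.16 (1.03 to 1.30). Zc3h12a (chromosome 4, 125118423 to 125127840), a nuclease that degrades inflammatory messenger RNAs, had 11.3 CPM in dry eye and 7.76 CPM in control, a ratio of 1.46. Nfkbia was thus lower over all CPM while found in more cells, 32.7% in dry eye against 27.5% in control.

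Icam1 (chromosome 9, 21015985 to 21028817, plus strand), the adhesion molecule that leukocyte integrins bind, was scarce, with 236 UMIs in dry eye and 111 in control, or 1.14 and 0.580 CPM. It was detected in 1.22% of dry eye cells and 0.172% of control cells, and most control UMIs lay in very few cells. In the classes with the fewest Icam1 UMIs per cell, 0.0673% of dry eye Squam cells and 0 of 4230 control Basal cells had one (upper end of the interval 0.0872%), at medians of 9518 and 5695 UMIs. Gm47079, an antisense gene of the table, overlaps it.

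**Figure D1:**
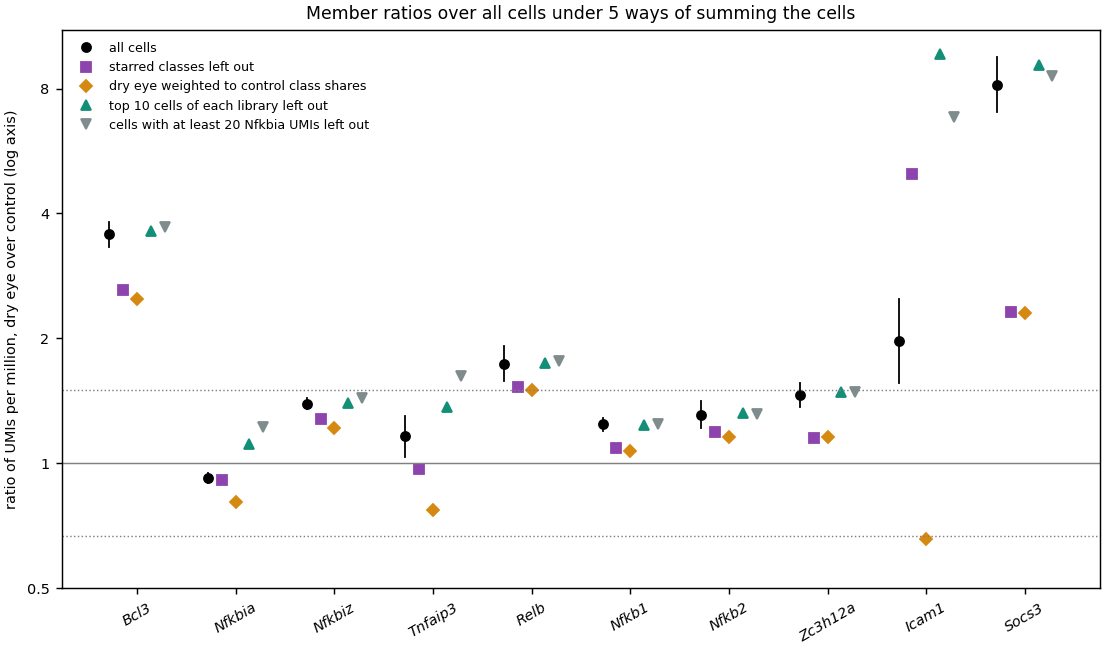
Ratio of CPM, dry eye over control, for each member (log axis) under 5 ways of summing cells; the line through each black point is the exact 95% interval, and dotted lines mark 1.5-fold in either direction. Bcl3 and Socs3 stay above 1.5 in all 5, whereas Icam1 runs between 0.655 and 9.67 and Nfkbia crosses 1.

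The ratio over all cells mixes levels within classes with the numbers of cells in them. When each dry eye class was given its control share of cells, Socs3 was 2.31-fold and Bcl3 2.49-fold higher, Relb was 1.5-fold higher, and Icam1 had a ratio of 0.655. Without the starred classes Socs3 had a ratio of 2.32, Bcl3 2.61, Relb 1.52 and Icam1 4.99. Zc3h12a had 1.15 and Tnfaip3 0.965 without them. Leaving the starred classes out thus took Socs3 below Bcl3 and Icam1.

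In the dry eye library all 10 members had a larger share of their UMIs in starred classes than the 14.4% of all UMIs there, as did 51.1% of all 13996 genes with at least 50 UMIs and a dry eye UMI. The median share was 29.7% over the members and 14.5% over those genes. The share was 78.0% for Socs3, 52.5% for Icam1 and 39.3% for Bcl3. Tnfaip3 followed with 37.8% and Zc3h12a with 32.6%. Nfkbia, Relb and Nfkb1 had 26.8%, 25.4% and 25.0%, and Nfkb2 and Nfkbiz 22.4% and 22.1%. The sources used here do not state how classes were drawn, and Socs3 is itself among the leading genes of TAC1* and TAC2*, so these shares describe the classes.

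**Figure D2:**
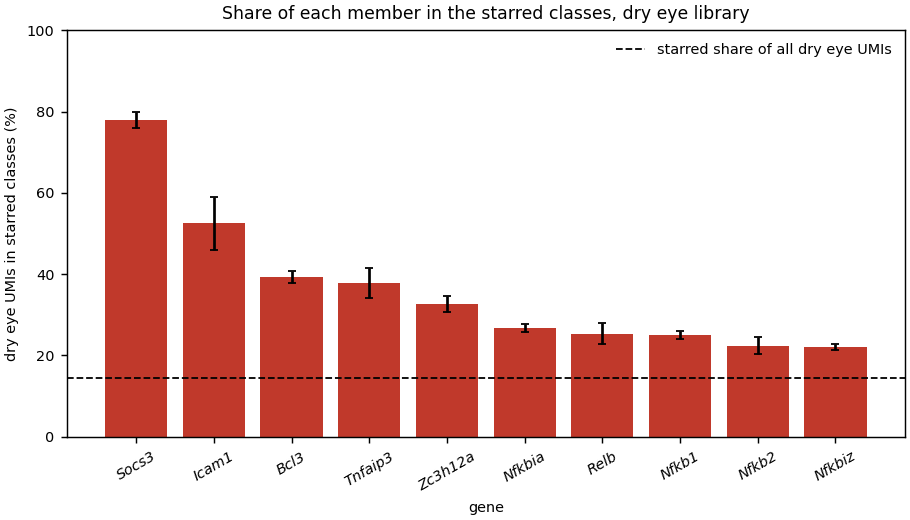
Percent of each member's dry eye UMIs that lie in the starred classes, with exact 95% binomial intervals; the dashed line is the share of all dry eye UMIs, 14.4%. All 10 bars stand above the line, as 51.1% of all genes do, from 22.1% for Nfkbiz to 78.0% for Socs3.

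Socs3 was graded along the dry eye classes. TAC2* had 70.5 CPM, LSC* with its 85 cells 63.7 CPM (52.0 to 77.2) and TAC1* 52.7 CPM, Wing* had 32.9 CPM and Squam* 13.7 CPM, while among unstarred classes LSC had 11 CPM, TAC2 6.62 CPM and Squam 0.547 CPM. The interval of LSC* overlapped those of TAC2* and TAC1*. The intervals of Squam* and LSC overlapped, as did those of TAC1 and Basal, of Wing and Conj, and of Conj and Squam. In control no class of at least 100 cells passed 6.24 CPM, the level of TAC1*. Within dry eye, the starred over the unstarred class of the same name gave ratios of 29.1 for Wing, 25.1 for Squam, 15.8 for TAC1, 10.6 for TAC2 and 5.78 for LSC.

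Between libraries and within classes, Socs3 was 8.44-fold higher in dry eye TAC1* (52.7 against 6.24 CPM; interval 4.39 to 18.6) and 5.52-fold higher in LSC (11 against 2.0 CPM; 1.78 to 27.7). Wing had 1.13 CPM in dry eye and 0.415 CPM in control, a ratio of 2.73, and TAC2 and TAC1 had ratios of 2.19 and 2.05. Basal cells had 2.38 CPM in both libraries, a ratio of 1.0 with an interval of 0.672 to 1.48. Among the classes compared, Socs3 was thus higher in dry eye in the dividing, limbal and Wing classes and even in Basal. This difference between classes was not tested. Control held 3 Socs3 UMIs in LSC, 9 in TAC1*, 14 in TAC1, 35 in Wing and 40 in TAC2. These classes passed the filter of 50 UMIs only with their dry eye counts, whereas Basal had 64 UMIs in control. Squam, with 19 UMIs in dry eye and 3 in control, and Conj, with 23 and 12, had too few to be compared.

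Bcl3 was at least 1.5-fold higher in dry eye in all 8 classes, and every interval lay above 1. LSC, TAC1, TAC1* and TAC2 had 6, 18, 4 and 31 control UMIs, so they passed the filter only with their dry eye counts. With an upper bound on free RNA taken off the higher library, TAC1 fell to 0.0623 and Conj to 1.39. Basal, the class that set the bound, had no ratio left, and the other classes stayed above 1.5. The ratio was 9.85 in TAC1* (27.3 against 2.77 CPM, where control held 4 UMIs), 3.70 in LSC, 3.39 in Squam and 3.36 in TAC2. Wing had 2.23, Conj 1.94, Basal 1.82 and TAC1 1.81. Among classes of at least 100 cells the dry eye order ran from Squam* at 89.9 CPM over Wing* at 58.1 CPM and TAC2* at 38.7 CPM to Squam at 29.3 CPM and TAC1* at 27.3 CPM, the last 2 with overlapping intervals. Basal and TAC1 were lowest at 4.05 and 3.80 CPM, with overlapping intervals. Dry eye LSC*, with 85 cells, had 38.9 CPM. Among control classes of at least 100 cells Squam was highest at 8.64 CPM, while the 12 control Wing* cells had 175.6 CPM, and from TAC1* to TAC1 at 2.10 CPM each class overlapped the next.

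**Figure D3:**
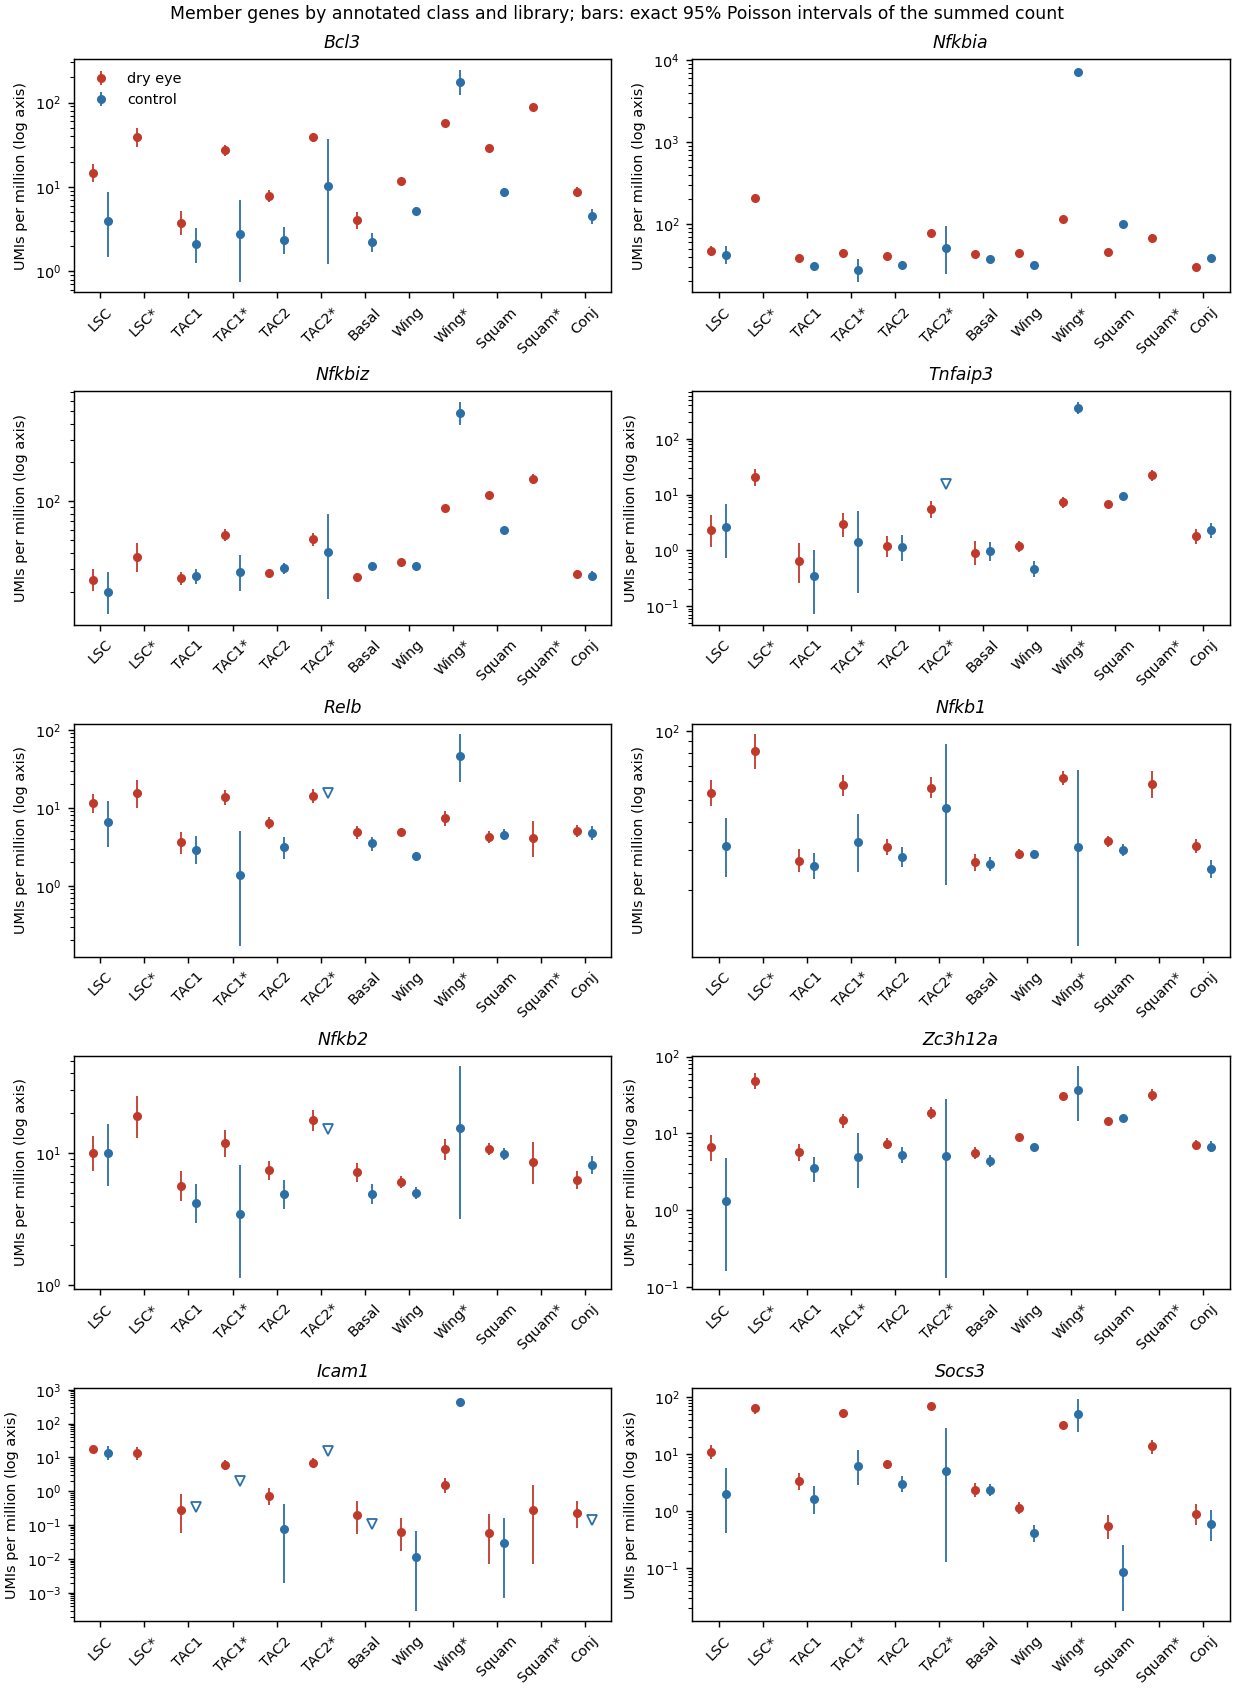
CPM of each member (log axis) by annotated class other than Immune, dry eye left and control right, for classes of at least 12 cells; bars are exact 95% Poisson intervals, and open triangles mark the CPM of 3 counts where none was found. Socs3 reaches 70.5 CPM in dry eye TAC2*, and the 12 control Wing* cells stand far above all other groups for Nfkbia and Icam1.

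Relb was higher by at least 1.5-fold in dry eye in 4 of 8 classes. They were TAC1* (13.7 against 1.39 CPM, with 2 control UMIs), TAC2 (6.41 against 3.1 CPM, ratio 2.07), Wing (4.94 against 2.40 CPM, ratio 2.06) and LSC (11.5 against 6.65 CPM, ratio 1.73 with an interval of 0.863 to 3.82). Of these 4 classes only Wing had 50 Relb UMIs in control alone. Squam and Conj had Relb ratios of 0.932 and 1.05. Nfkb1 passed 1.5 in TAC1* and LSC, with ratios of 1.77 and 1.72, and lay at 1.0 in Wing and 1.02 in Basal. Nfkb2 had 3.44 in TAC1* and 1.51 in TAC2, against 0.764 in Conj (0.612 to 0.954). Zc3h12a had 3.03 in TAC1* and 1.62 in TAC1 but 0.912 in Squam, the unstarred class with its highest dry eye level, 14.4 CPM.

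Of 80 pairs of a member and a class, 65 had at least 50 UMIs, and of these 27 were at least 1.5-fold higher in dry eye and 1 lower. With an upper bound on free RNA taken off the higher library 16 of 55 pairs were higher and 19 lower, and with it taken off both libraries 22 of 43 were higher and 9 lower. In TAC1* 8 of 8 members were higher, where 15.6% of all genes were higher and 14.6% lower, but none of the 8 had 50 UMIs in control alone. Nfkbia, Nfkbiz and Nfkb1 came near with 40, 41 and 47 control UMIs. The others had at most 9 there, so they could pass only by being high in dry eye. Over the 8 classes 39 of the 65 pairs had 50 UMIs in control alone. In LSC only 1 of 8 members did, in TAC1 3 of 8, in TAC2 5 of 8 and in Wing 7 of 9. The counts of members higher in these classes are therefore also partly set by this filter. In TAC2 Bcl3, Relb and Socs3 had 31, 41 and 40 control UMIs, and in Wing Tnfaip3 and Socs3 had 39 and 35. All of these pairs were among those higher. LSC and TAC2 had 4 of 8 higher each, against 4.35% and 3.14% of genes higher and 7.87% and 4.32% lower. TAC1 had 3 of 8, against 2.39% higher and 2.25% lower, and Wing 4 of 9, against 5% higher and 6.43% lower. Squam had 2 of 8 higher and 1 of 8 lower, against 3.94% and 14.5% of genes. Conj and Basal had 1 of 8 higher each, Bcl3 in both, against 2.92% and 2.24% of genes higher and 1.63% and 2.62% lower. In TAC1* the control count rested on 133 cells, and a small count leaves wide intervals.

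**Figure D4:**
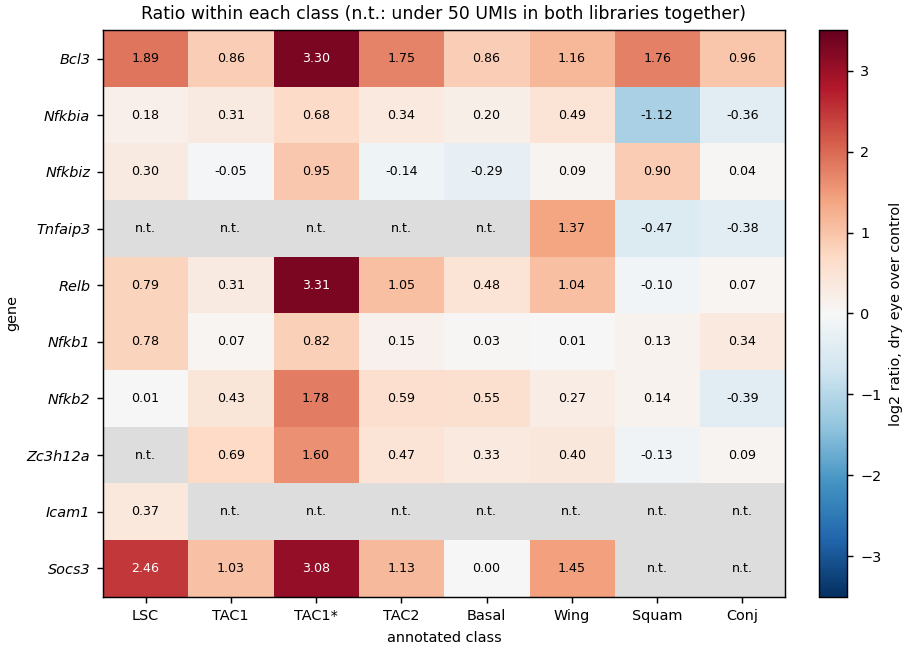
Log2 ratio of CPM, dry eye over control, for each member (rows) in the 8 classes compared (columns); grey cells had under 50 UMIs. Bcl3 is positive in every column, TAC1* is positive in every tested row, and Nfkbia is at -1.12 in Squam.

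Squam split the inhibitors. Nfkbia had 46.2 CPM in dry eye and 100.5 CPM in control, a ratio of 0.459 (0.433 to 0.488), the only member and class pair at least 1.5-fold lower. Tnfaip3 had 6.88 CPM in dry eye and 9.51 CPM in control, a ratio of 0.723. Nfkbiz went the other way, with 113 CPM in dry eye and 60.5 CPM in control, a ratio of 1.87 (1.77 to 1.97), and Bcl3 with 29.3 and 8.64 CPM. The nuclear IkB transcripts Nfkbiz and Bcl3 were thus higher and the cytoplasmic Nfkbia lower in the same class. Of the IkB genes outside the members 1 was tested in Squam, and it was 1.5-fold off in neither direction. In Wing, Nfkbia had a ratio of 1.40, Tnfaip3 2.58 and Nfkbiz 1.06.

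Part of the control Squam level sat in few cells. In Squam 1 dry eye cell and 20 control cells had at least 20 Nfkbia UMIs, holding 31 and 1120 UMIs. Without such cells Nfkbia had 45.3 CPM in dry eye Squam and 68.6 CPM in control Squam, a ratio of 0.660, and Tnfaip3 had 0.981, so the Nfkbia difference was smaller but still past 1.5-fold and that of Tnfaip3 was gone. Nfkbiz then had 2.03. Lower thresholds showed the same direction: 1.61% of dry eye Squam cells and 4.55% of control Squam cells had at least 5 Nfkbia UMIs, and 28.6% and 33.9% had at least 1.

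**Figure D5:**
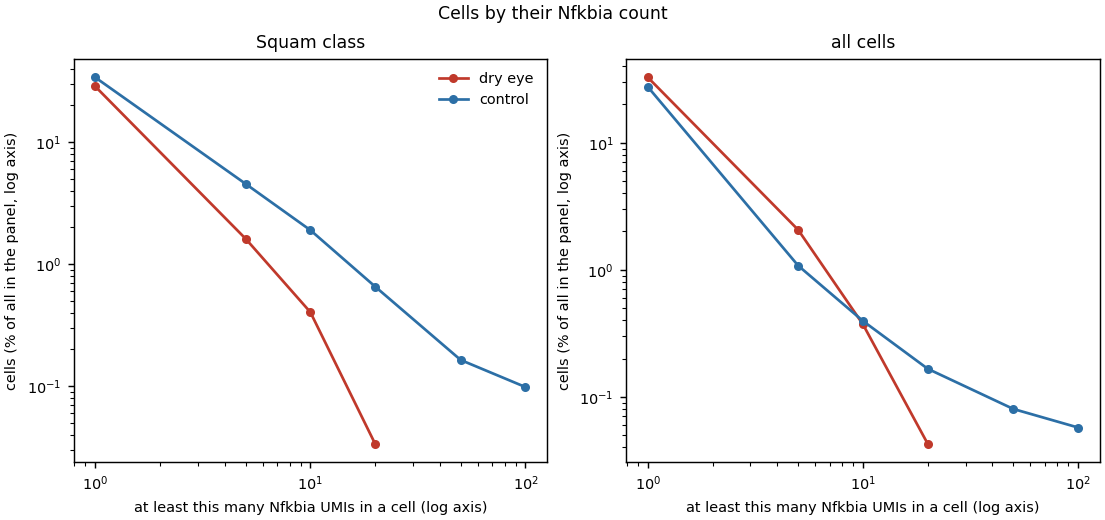
Percent of cells (log axis) with at least 1, 5, 10, 20, 50 and 100 Nfkbia UMIs (log axis) in Squam and in all cells; a line ends where no cell is left. In dry eye no cell reached 50 UMIs, whereas 14 control cells did, and over all cells the lines cross near 10 UMIs.

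Over all classes, 7 dry eye cells and 29 control cells had at least 20 Nfkbia UMIs. The highest count was 32 in dry eye and 253 in control, and the 10 control cells with at least 100 held 1922 of the 10141 control UMIs. Of the 29 control cells 20 were Squam and 8 Wing*, whereas 7 of the 10 dry eye cells with the most Nfkbia UMIs were Wing*. Without these cells Nfkbia had a ratio of 1.22, Tnfaip3 1.63 and Icam1 6.82 over all cells, so the direction of Nfkbia between the libraries turned on 29 control cells of 17465. This threshold was chosen after the values were seen.

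These 29 control cells also held other transcripts of the pathway, though not all of them alike. They held 159 of the 536 control Tnfaip3 UMIs, found in 28 of them, and 79 of the 111 Icam1 UMIs, found in 7. The early response genes Gadd45b, with 2337 UMIs, and Ier3, with 1961 UMIs, were found in all 29, and Tnf, with 228 UMIs, in 24. Ier3 was also found in 2632 of the 3036 other control Squam cells. It had 462 CPM there and Gadd45b 122 CPM, against 2839 and 1337 CPM in the 20 Squam cells of the 29. Cxcl2 had 1268 UMIs in 10 cells, Cxcl1 420 UMIs in 8, Csf2 135 UMIs in 2, and all 108 control Ccl20 UMIs lay in 6 of them. The 7 dry eye cells had 0 UMIs of Cxcl1, Cxcl2, Ccl20, Csf2 and Icam1, with 25 of Gadd45b and 4 of Tnf. They are no match for the 29, being deeper, with medians of 46314 against 12885 UMIs per cell. Nfkbia had 405.6 CPM in the 7 dry eye cells and 5299 CPM in the 29 control cells. Socs3 had 9 UMIs in 2 of the control cells. The 20 Squam cells among the 29 had 0 UMIs of Icam1, Ccl20, Csf2 and Socs3, so these lay in the other cells of the set.

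The corneal keratin gene Krt12 had 17790 CPM in the 7 dry eye cells and 1352 CPM in the 29 control cells. In the Immune cells, which should lack it, it had 4422 CPM in dry eye and 2455 CPM in control, and in the other Squam cells 17280 and 12391 CPM. By CPM the Krt12 level of the 29 control cells was thus no higher than in control Immune cells, but those were shallower. The median cell had 19 Krt12 UMIs among the 29 and 4 in control Immune, at median depths of 12885 and 1351 UMIs. The leukocyte genes Ptprc, Cd74, Tyrobp and Fcer1g had 0 UMIs in both sets, as did the sum of 6 pan-leukocyte markers, and the 30 leukocyte markers of the table summed to 10 and 46 UMIs. In the Immune class those 30 summed to 2859 UMIs over 31 dry eye cells and 2990 over 20 control cells. The summed immediate early and dissociation stress genes had 7698 CPM in the 7 dry eye cells and 20920 CPM in the 29 control cells, against 4481 CPM in all other dry eye cells and 4954 CPM in all other control cells. Of the control cells rich in Nfkbia, the 8 in Wing* had 43559 CPM and the 20 in Squam 8241 CPM, the other control Squam cells having 4417 CPM. Their part in the control levels of Nfkbia, Tnfaip3 and Icam1 was not tested.

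Apart from these cells Icam1 was found mainly in LSC, LSC* and the starred TAC classes. Dry eye LSC had 18 CPM (14.2 to 22.5), LSC* 13.6 CPM (8.52 to 20.6, on 22 UMIs), TAC2* 7.02 CPM and TAC1* 6.05 CPM, the last 2 with overlapping intervals, and Wing* 1.53 CPM. All other dry eye classes of at least 100 cells had at most 0.736 CPM. In control, LSC had 14 CPM (8.65 to 21.4), no other such class passed 0.0757 CPM, and TAC1*, TAC1, Basal and Conj had 0 UMIs. For TAC1*, 37 UMIs in dry eye stood against 0 in control, where 3 counts would be 2.08 CPM, so the level was at least 2.91-fold higher by that floor, and the exact interval of the ratio began at 2.25. Between libraries LSC had a ratio of 1.29 with an interval of 0.788 to 2.20, a difference not detectable at this depth.

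Among classes of at least 100 cells Nfkbiz was highest in Squam*, at 149.5 CPM, and Squam in dry eye and in Squam in control, and from TAC2 to LSC the dry eye classes overlapped their neighbours at 27.7 to 24.6 CPM. In Basal it had 25.8 CPM in dry eye and 31.6 CPM in control, a ratio of 0.816 (0.729 to 0.911). The 12 control Wing* cells had 480.2 CPM of Nfkbiz and 366.6 CPM of Tnfaip3. In dry eye Tnfaip3 had 22.3 CPM in Squam* and 20.4 CPM in LSC*, with overlapping intervals, and among unstarred classes it was highest in Squam in both libraries. Only in Wing, Squam and Conj did it have enough UMIs to be compared.

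Over the 19 sums of a class and library with at least 100 cells, the genes whose log2 CPM was most alike to that of each member were named among 6854 genes, by Pearson's r. Socs3 was most like Arl4d (0.96) and the protease gene Furin (0.94), and Icam1 like Arl4c (0.97) and Actn1 (0.96), which encodes an actin crosslinker. Bcl3 was most like the interferon gamma receptor gene Ifngr1 (0.95) and Cpn1 (0.94), and Zc3h12a like Cpn1 (0.94) and Samd4b (0.92). Nfkbia had S100a9 (0.82) and Mapk6 (0.81), Nfkbiz had Tnk2 (0.93), and Tnfaip3 had the apoptosis inhibitor gene Birc3 (0.91) and Mapk6 (0.91). Relb had Msn (0.90) and Serpina3n (0.89), Nfkb1 had Tmprss11g (0.92) and Clu (0.90), and Nfkb2 had Cxcl16 (0.86) and B4galnt1 (0.80). The sums share 2 libraries and differ in depth, so these values are descriptions.

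Other genes of the pathway were counted over all cells by the same rule. Of 16 IkB kinase and upstream kinase genes 1 was at least 1.5-fold higher, Irak3, an inhibitor of receptor signalling, at 2.05, and none lower, with Ikbke at 1.34, Ripk2 at 0.801 and Irak2 at 0.731. Of 21 ubiquitin editors and adaptors 2 were higher, Tnip3, a partner of the protein made from Tnfaip3, at 5.68 and 1.61 without starred classes, and Birc3 at 1.62. Birc2 and Traf5 lay at 0.777 and 0.713. Of the other 3 IkB genes Nfkbie had 1.61 (1.09 to 2.41), Nfkbib 1.05 and Nfkbid 0.958, and of 9 further RNA decay genes none passed, from Zfp36l2 at 1.23 and Rc3h1 at 1.20 to Zfp36l1 at 0.799 and Zc3h12c at 0.776. These counts stand against 7.94% of all genes higher and 5.87% lower.

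Among receptors that feed the pathway 3 of 14 were higher, led by the TWEAK receptor gene Tnfrsf12a at 2.49 and by Tnfrsf11a at 1.58, while Tlr3 and Tlr2 had 0.837 and 0.741. Of 9 ligands 4 were higher, led by Il1f8 and Il1f6, the interleukin-36 genes, at 4.90 and 4.75, and 1 lower, Tnf at 0.281, with 189 UMIs in dry eye and 622 in control, and Eda had 0.759. Of 17 other NF-kB targets 4 were higher and 4 lower. Ptgs2, which encodes an inducible cyclooxygenase, had 334 UMIs in dry eye and 5 in control, a ratio of 61.8 (26.2 to 192), and 20.5 without starred classes. Cxcl3 had 274 and 12. The 10 dry eye cells with the most UMIs of each gene held 30.5% of those of Ptgs2 and 88.0% of those of Cxcl3. Csf2 had 8 UMIs in dry eye and 136 in control, and Ccl20 0 and 108.

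Beside Socs3, 2 of the 7 other SOCS genes were higher, Socs2 at 1.54 and Socs1 at 1.53, while Socs5 and Socs7 had 0.889 and 0.839. Of 18 genes around STAT3 1 was higher and 1 lower. Il24, a cytokine that acts through STAT3, had 140 UMIs in dry eye, 70.7% of them in 10 cells, and 0 in control. Its ratio was at least 43.2-fold with control at a floor of 3 counts and from 34.6-fold by the exact interval. The receptor genes Il6ra, Il20rb and Lifr had 1.32, 0.698 and 0.620. Of 5 genes for other ICAMs and leukocyte ligands 1 was higher, Icam5 at 2.58 on 39 and 14 UMIs, with Icam4 at 1.15, F11r at 0.978 and Cd44 at 0.881. Of 16 immediate early and dissociation stress genes Fosb alone passed, at 1.91, with Dusp1 at 1.25, Hspb1 at 0.843 and Hspa1a at 0.700. In the Immune class, with 31 dry eye and 20 control cells, no member had more than 4 UMIs in either library. The cells were shallow, with medians of 918 and 1351 UMIs. In dry eye the 4 UMIs of Socs3 and of Nfkbia were 80.0 CPM each and the 2 of Icam1 40.0 CPM. Such counts are too small to say whether the members are low or high in this class.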

How the data were processed

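Per the labels, epithelium was dissociated and libraries were made with a 10x Genomics 3' kit. The submitters' processing notes name Cell Ranger 6.0.1, Seurat 4 and the build mm10 without saying what each did. The sources used here state no filter on cells or doublets, and no doublet caller was run. The authors deposited raw UMI counts per gene and cell for 33885 cells, with a table of library and class per cell. Counts were summed per class and library and divided by the total (Python 3.11.15, numpy 2.4.6, pandas 2.3.3, scipy 1.17.1). Ratios had Clopper-Pearson intervals from the split of both counts, levels exact Poisson intervals and shares of cells Clopper-Pearson intervals. Only the intervals of ratios were tried on simulated data. The simulated sums were Poisson counts, unlike sums with many UMIs in few cells. A gene was compared with at least 50 UMIs over both libraries, and called higher or lower at 1.5-fold. The log2 CPM used for likeness had a pseudocount of 1 and took genes of at least 20 CPM in 1 sum. Named besides the members were the 2 highest and 2 lowest genes of each pathway list and the 2 most alike to each member, of which 1 is not reported here; genes of the cells rich in Nfkbia came from the target and leukocyte lists, and class markers were singled out afterwards. The members and lists were chosen with earlier results of these data known. Coordinates are 1-based, from GENCODE M21 on the same build, and promoters from RefSeq. Alternatives changed cells, weights, filters and fold, as given in the closing section. List genes outside the table were not analysed here.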

Additional observations from a re-analysis of the deposited data

Results flagged for a closer look

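For 4 members the libraries differed in opposite directions in different classes, with intervals of counting error on either side of 1. These are 4 of the 9 members with at least 50 UMIs in at least 2 classes, against 18.5% of all 11828 such genes, and an interval narrows with the count of a gene. Nfkbia had its highest ratio in TAC1*, 1.60, and its lowest in Squam, 0.459. Nfkbiz was highest in TAC1*, at 1.93, and lowest in Basal, at 0.816. Tnfaip3 was highest in Wing, at 2.58, and lowest in Squam, at 0.723. Nfkb2 was highest in TAC1*, at 3.44, and lowest in Conj, at 0.764. With 1 library per group the difference between classes was not tested.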

How the results depend on the processing

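No paired analysis was possible because each group was 1 pooled library, so no replicate could be left out either. The 4 members at least 1.5-fold higher over all cells became 2 at 2-fold and 0 with a filter of at least 100 UMIs and 20 CPM in one library, which leaves out the 4. Members that were lower became 1 when each dry eye class was given its control share of cells, where Icam1 turned to 0.655. The 27 higher pairs of a member and a class became 16 at 2-fold. The single lower pair became 3 with the mean over cells of each cell's CPM. A bound on free RNA was added after the data were seen: the upper limit of a member's mean count per cell in its lowest class. Taken off the higher library alone it left 16 pairs higher and 19 lower of 55 that still had a ratio. Taken off both libraries it left 22 higher and 9 lower of 43. It is an extreme bound, since the class with the fewest UMIs may itself express the gene. Of 120 single ratios under alternatives over all cells 74 stayed within the interval of the reported value and 45 moved out of it without a called value changing sides. In the remaining 1, Icam1 with the control shares of cells, a called value changed sides. Of 252 within classes 212 stayed and 40 moved. Of these ratios, 7 over all cells and 10 within classes, called or not, lay on the other side of 1 from the reported value. Icam1 ran from 0.655 to 9.67 and Socs3 from 2.31 to 9.11. The ratio of the shares of cells with a Tnfaip3 UMI over all cells was 1.72, and 1.05 with cells thinned to 3000 UMIs. Precision is limited by 1 library per group and by small control counts in TAC1* and LSC.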
